A study of Mus musculus with 12 samples.

Results

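Interferon-stimulated genes were described in hematopoietic stem cells (HSCs) of 4 mouse genotypes. The group holds 44 named genes of the type I and type II interferon response, of 18546 genes in the deposited table; guanylate-binding proteins and Ifitm genes were left out by definition. All 44 were found in the table, and all 44 reached the minimum of 1 RPKM in at least 3 libraries that 15478 genes met. RPKM is the number of reads scaled to gene length and to the depth of the library.

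The cells were sorted from C57BL/6 bone marrow at 10 to 12 weeks of age as CD150+ CD48- cells of the lineage-negative, Sca1+, cKit+ fraction. The genotypes were wild type, NrasG12D/+ (1 copy of an activated Ras gene), Tet2+/- (loss of 1 copy of an enzyme that oxidizes 5-methylcytosine in DNA) and the compound mutant NrasG12D/+;Tet2+/-, with 3 libraries each. How the alleles were made or switched on, any treatment of the mice, and whether a library came from 1 animal or a pool are not given in the sources used here. P-values therefore measure the spread between these libraries.

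Interferons are secreted proteins that cells release on infection. Type I interferon acts through the receptor chains Ifnar1 and Ifnar2 and the kinases Jak1 and Tyk2, and leads to a complex with Stat2 and Irf9 that binds the interferon-stimulated response element (ISRE) near target genes. Type II interferon acts through Ifngr1, Ifngr2, Jak1 and Jak2, and leads to binding at the gamma-activated site (GAS). In HSCs, both kinds of interferon are known to push quiescent cells into division when given acutely, and stem cells hold a basal level of several of these genes.

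Promoter sequences of the members were searched for the ISRE and GAS motifs. RefSeq promoters on GRCm38.p6, 250 bases before to 50 bases after the start of each gene, were matched for 33 of the 44 members. The ISRE core was searched on both strands as TTTC, then 2 bases of any kind, then TTTC, and the GAS as TTCNNNGAA. The ISRE core was present in 15 of 33 members (45.5%), and in 3.99% of 27025 genes with a promoter of the same length. The GAS motif was present in 9 of 33 members (27.3%), and in 9.55% of those genes. Both motifs were found in 5 members, namely Bst2, Eif2ak2, Igtp, Irgm2 and Oas1a. A match describes letters in this window and is not a measured binding site. The promoters below are shown because they hold the arrangements found in genes described below: repeated ISRE cores in the ubiquitin-like modifier Isg15 and in the RNA-binding protein Ifit1, and a GAS beside an ISRE core in the GTPases Igtp and Irgm2. Each line gives the 150 bases before the RefSeq start, 5′ to 3′ on the strand of the gene, with motif matches in capitals.
Isg15, chr4:156200819-156200968, minus strand: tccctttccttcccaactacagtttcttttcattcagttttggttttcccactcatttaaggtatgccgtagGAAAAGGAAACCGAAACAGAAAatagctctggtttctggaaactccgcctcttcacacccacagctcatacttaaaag
Ifit1, chr19:34640739-34640888, plus strand: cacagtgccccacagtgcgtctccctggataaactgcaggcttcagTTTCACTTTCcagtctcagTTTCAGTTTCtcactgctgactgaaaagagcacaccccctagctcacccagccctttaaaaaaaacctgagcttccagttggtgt
Igtp, chr11:58199406-58199555, plus strand: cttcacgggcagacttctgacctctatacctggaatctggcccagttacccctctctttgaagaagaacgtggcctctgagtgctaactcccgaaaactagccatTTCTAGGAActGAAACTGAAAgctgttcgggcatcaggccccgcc
Irgm2, chr11:58214827-58214976, plus strand: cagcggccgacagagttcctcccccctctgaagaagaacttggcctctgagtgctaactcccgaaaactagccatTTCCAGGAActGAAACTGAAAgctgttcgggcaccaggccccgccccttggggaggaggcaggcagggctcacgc
In Isg15 the capitals hold 3 overlapping ISRE cores read on the opposite strand. In Ifit1 they hold 2 separate ISRE cores. In Igtp and Irgm2 a GAS is followed after 2 bases by 1 ISRE core on the opposite strand.

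Depth and cell identity were as follows. The libraries held 19205045 to 36890942 reads in genes, recovered from the deposited values. Between 1000 and 3824 genes per library had 0 reads, and the libraries with the most were wild type 1 (3824 genes) and NrasG12D/+ 2 (3268 genes). Results were therefore also computed without those libraries. The HSC genes Kit (64.7 to 86.0 RPKM) and Hlf (38.6 to 68.1 RPKM) were present in all libraries, while Cd48, which the sort excludes, had at most 1.28 RPKM. Among myeloid markers, Csf1r reached at most 0.799 RPKM and Ms4a7 at most 0.42 RPKM, Cd68 at most 4.68 RPKM, S100a9 at most 5.85 RPKM and Itgam at most 3.41 RPKM, but Lyz2 lay at 75.2 to 109 RPKM in all 12 libraries. Of the plasmacytoid dendritic cell markers, Ccr9 reached at most 0.272 RPKM, Tcf4 lay at 1.32 to 2.71 RPKM, and Siglech was not analysed here. The platelet gene Pf4 lay at 5.28 to 17.4 RPKM in the 6 libraries with the Nras allele and at most 2.81 RPKM in the others. It was the 1 of 4 megakaryocyte markers that split this way: Gp9 (4.14 to 23.2 RPKM over 12 libraries), Itga2b (9.32 to 21.1 RPKM) and Ppbp (at most 5.16 RPKM, with 0 reads in 7 libraries) overlapped. Their summed level was 28.9 to 50.2 RPKM with the Nras allele and 20 to 30.9 RPKM without it. The erythroid gene Hbb-bt lay at 9.48 to 11.2 RPKM in wild type and 4.93 to 12.9 in NrasG12D/+. It was lower in Tet2+/- (2.27 to 5.71 RPKM) and the compound mutant (0.0612 to 6.82 RPKM). The erythroid genes Hba-a1 and Klf1 overlapped between wild type and every mutant genotype. The part of Pf4-expressing or other cells in any difference below was not tested. In bulk RNA, fewer cells of a type and less RNA per cell cannot be told apart. Xist and Y-linked genes put 5 libraries on the male side and 7 on the female side, and both sexes occur in every genotype. The male libraries were replicate 1 of each genotype and Tet2+/- 3.

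Most members were expressed at a low to moderate level in wild-type HSCs as well as in the mutants. The members took 0.323% to 0.405% of the reads in genes. Their deposited RPKM cannot be compared between genes directly, because the length behind it was 0.568 to 4.47 times the length of the merged exons in GENCODE M21 (median ratio 1.68). Comparisons between genes therefore use RPKM per merged exon length, as a mean over 12 libraries. On that scale Lgals3bp, a secreted glycoprotein, was highest at 58.5, followed by Dtx3l, a ubiquitin ligase, at 48.0, the antiviral Trim30a at 38.7 and Samd9l, an inhibitor of translation in infected cells, at 34.9. The lowest were Ifit3 at 1.41, Isg15 at 2.08 and the antiviral GTPase Mx1 at 3.78. All other values are given on the deposited scale, which serves to compare a gene between libraries.

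No member passed the test in any of 8 comparisons between genotypes (limma, Benjamini-Hochberg adjusted p under 0.05 over all genes tested). The smallest adjusted p of any member was 0.512, for Ifih1 between carriers and non-carriers of the Nras allele. The background was also low. Of all genes tested, 0.00646% passed in each of NrasG12D/+, Tet2+/- and the compound mutant against wild type, and in the compound mutant against Tet2+/-. The share was 0% for the compound mutant against NrasG12D/+, 0.0129% for the interaction of the alleles, 0.0323% for the Nras allele averaged over Tet2 genotype and 0% for the Tet2 allele averaged over Nras genotype. At an unadjusted p under 0.05 without correction, 2, 1, 2, 1, 6, 2, 1 and 0 members were counted in those 8 comparisons, in the order NrasG12D/+, Tet2+/- and compound against wild type, compound against NrasG12D/+, compound against Tet2+/-, interaction, Nras allele and Tet2 allele. The shares of all genes at that p were 5.61%, 3.35%, 6.42%, 4.04%, 5.45%, 3.38%, 7.24% and 3.81%. Members are not independent of each other, so the counts are read as a description.

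The estimates leave room for changes of moderate size. For the Nras allele, averaged over 6 carriers against 6 other libraries, 32 of 44 members had a 95% interval within -1 and 1 on the log2 scale, and for the Tet2 allele 33 of 44 did. The interaction was less precise, with 16 of 44 members inside those limits. With the Nras allele, 33 of 44 members had a log2 difference above 0 (75.0%, against 48.9% of all genes tested), and the median was 0.15, beside -0.01 over all genes. With the Tet2 allele, 17 of 44 were above 0 (38.6%, against 52.5%), and the median was -0.06, beside 0.02 over all genes. For NrasG12D/+, Tet2+/- and the compound mutant against wild type, 25, 21 and 26 members were above 0, against 51.3%, 54.3% and 51.5% of all genes, with medians of 0.07, -0.02 and 0.09. For the interaction, 23 were above 0 (against 46.3%), with a median of 0.02. The 3 comparisons with wild type share the wild-type libraries. Without the 3 members that had 0 reads in some library, the allele medians were 0.13 and -0.06. Without wild type 1 and NrasG12D/+ 2, the median was 0.08 for the Nras allele, -0.03 for the Tet2 allele and 0.00 for NrasG12D/+ against wild type.

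**Figure D1:**
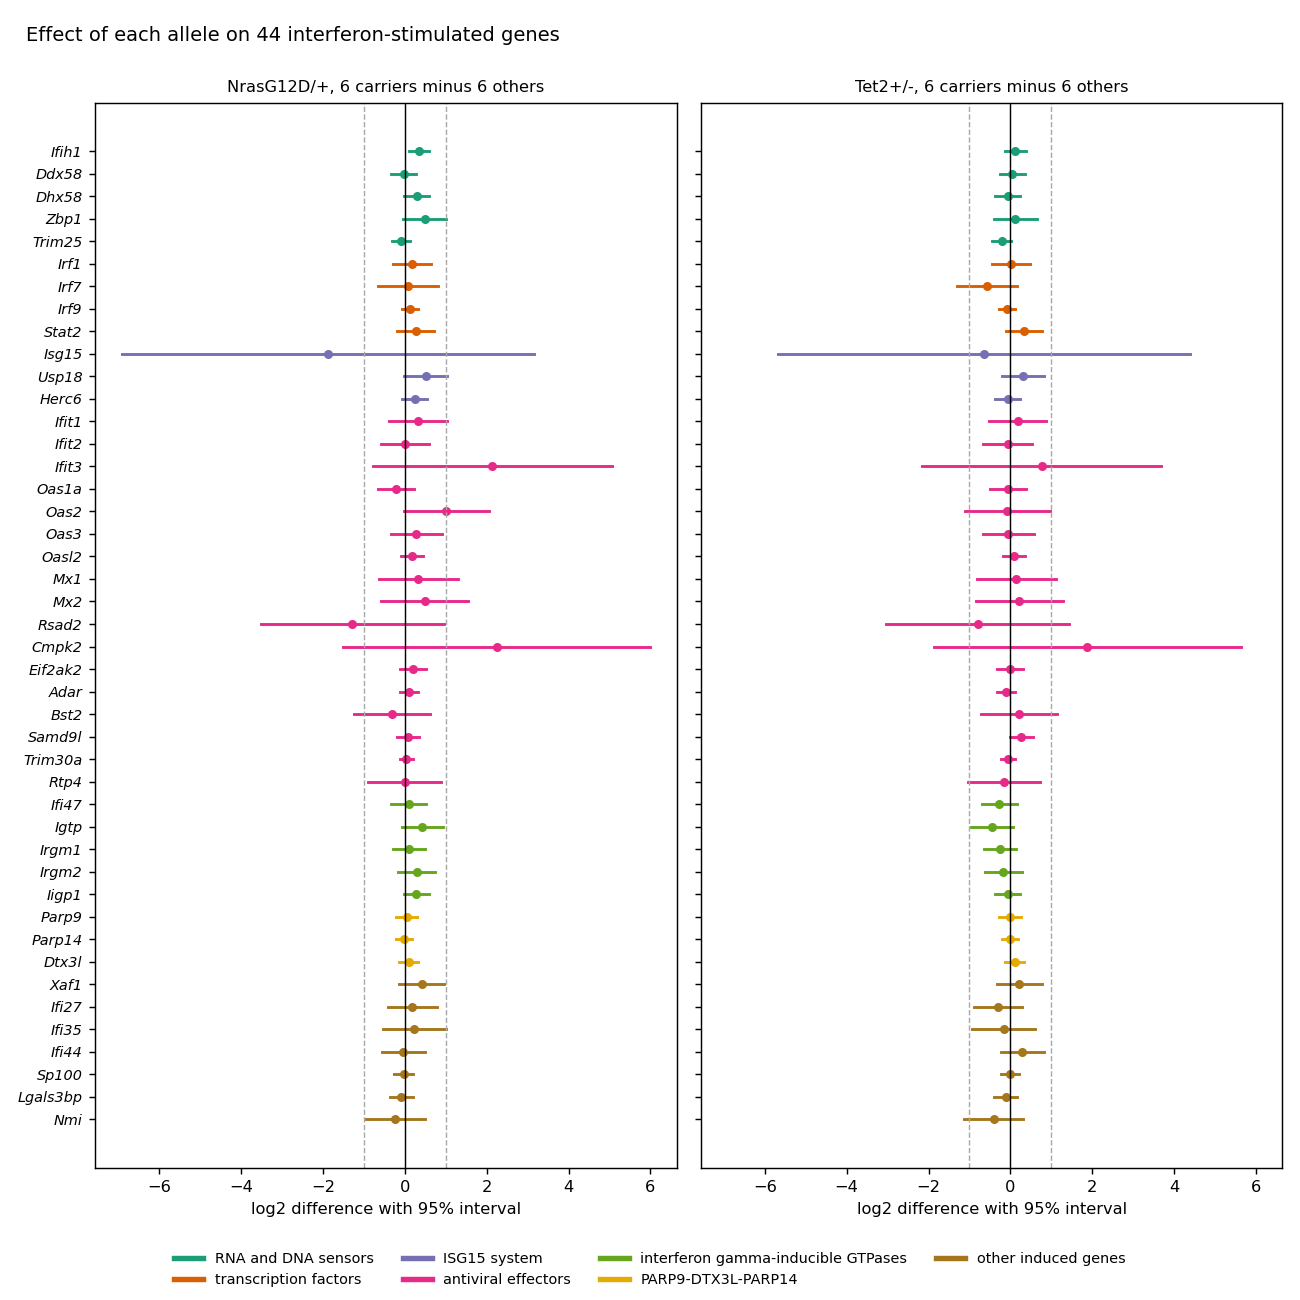
Log2 difference (x axis) of each of 44 members (y axis) for the 6 carriers of an allele minus the 6 other libraries, with points for estimates, lines for 95% intervals, colours for roles and dashed lines at -1 and 1. With the Nras allele 33 points lie above 0 and with the Tet2 allele 17; Isg15, Ifit3, Rsad2 and Cmpk2 have the widest intervals.

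The level of the whole group in a library was taken as the median over members of the log2 RPKM minus the mean of the gene over 12 libraries. In wild type it was -0.12, -0.01 and 0.11 in replicates 1, 2 and 3. In NrasG12D/+ it was -0.02, 0.15 and 0.11. In Tet2+/- it was -0.03, -0.03 and -0.13. In the compound mutant it was 0.07, 0.03 and 0.25. The same median over all genes was -0.07, 0.09 and 0.07 in wild type and 0.05, 0.00 and 0.12 in NrasG12D/+. It was 0.03, 0.09 and 0.08 in Tet2+/- and 0.04, 0.03 and 0.08 in the compound mutant. The members were thus below all genes in the 3 Tet2+/- libraries, but also in wild type 1 and 2 and in NrasG12D/+ 1 and, narrowly, 3. In the compound mutant they were above all genes in 2 libraries and level with them in 1. Wild type 1 was the lowest of 12 libraries for 12 members, and NrasG12D/+ 2 the highest for 9. Within male libraries the median log2 difference for the Nras allele was 0.11 and within female libraries 0.10, and for the Tet2 allele these were -0.00 and -0.05. Libraries of a sex were pooled without balancing the other allele, so these values are not the balanced allele difference. Within replicate numbers 1, 2 and 3 the median was less even, at 0.01, 0.07 and 0.22 for the Nras allele and 0.12, -0.04 and -0.12 for the Tet2 allele.

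**Figure D2:**
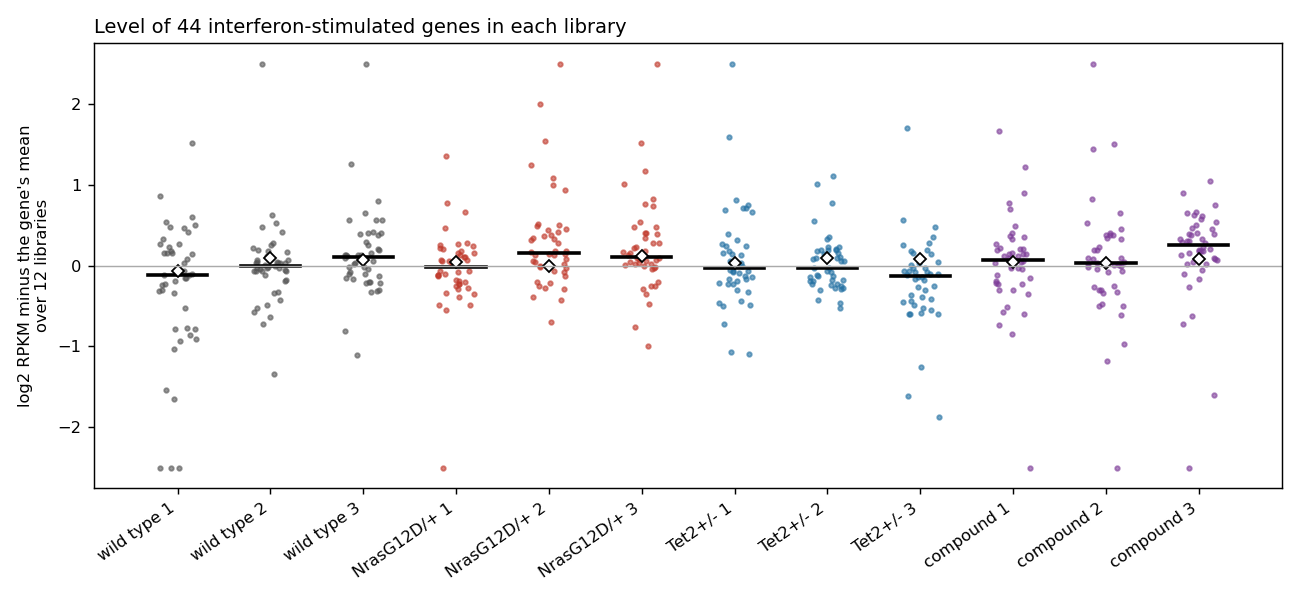
Log2 RPKM minus the mean of the gene over 12 libraries (y axis) for 44 members in each library (x axis), with black bars for the median over members and open diamonds for the median over all genes; 13 of 528 values beyond 2.5 are drawn at the edge. The bars span -0.13 in Tet2+/- 3 to 0.25 in compound 3.

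Among the sensors of viral nucleic acid, Ifih1 (MDA5, a sensor of long double-stranded RNA, at chr2:62595798-62646255 on the minus strand of GRCm38 in GENCODE M21) was highest in the compound mutant. Its RPKM was 6.75, 8.69 and 7.41 in wild type, 8.07, 9.66 and 8.77 in NrasG12D/+, 8.15, 8.06 and 6.65 in Tet2+/-, and 9.10, 11.1 and 11.2 in the compound mutant. All compound libraries were above all wild-type and all Tet2+/- libraries, and NrasG12D/+ overlapped wild type. The log2 difference of the Nras allele was 0.34 ± 0.11 (SE, 95% interval 0.09 to 0.59, limma adjusted p = 0.512), and that of compound against wild type was 0.46 ± 0.16 (limma adjusted p = 0.754). Pooled without balancing Tet2 genotype, the Nras allele difference was 0.26 within male and 0.33 within female libraries. Ddx58 (RIG-I, a sensor of short RNA ends) showed no such order, with 7.80, 9.82 and 8.43 RPKM in wild type, 7.97, 8.62 and 8.77 in NrasG12D/+, 11.3, 7.02 and 8.71 in Tet2+/-, and 7.40, 9.24 and 9.80 in the compound mutant. Trim25, the ubiquitin ligase that activates RIG-I, had 13.8, 11.8 and 13.6 RPKM in wild type, 13.0, 13.6 and 14.5 in NrasG12D/+, 12.9, 11.4 and 13.7 in Tet2+/-, and 11.2, 8.78 and 11.9 in the compound mutant. Compound libraries were below all NrasG12D/+ libraries for this gene but overlapped wild type. Its log2 difference of compound against wild type was -0.31 ± 0.14 (limma adjusted p = 0.767) and that of the Tet2 allele -0.21 ± 0.10 (limma adjusted p = 0.963). Without compound 2 the former was -0.17.

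None of the 4 transcription factors passed the test, and Irf7 and Irf9 had genotypes without overlap. Stat2, part of the ISRE-binding complex, had 4.43, 8.83 and 10.4 RPKM in wild type, 10.1, 9 and 7.61 in NrasG12D/+, 8.50, 10.4 and 8.87 in Tet2+/-, and 11.4, 9.61 and 12.9 in the compound mutant. Its lowest value came from wild type 1, and the other 11 libraries overlapped. Irf1, a factor induced through the GAS, had 7.97, 9.94 and 8.14 RPKM in wild type, 9.64, 13.5 and 8.22 in NrasG12D/+, 9.78, 9.99 and 7.89 in Tet2+/-, and 12.1, 12.9 and 6.12 in the compound mutant. The genotypes overlapped, and NrasG12D/+ and the compound mutant were more spread than wild type and Tet2+/-. Irf7, which amplifies type I interferon production, had 2.04, 1.64 and 1.84 RPKM in wild type, 1, 1.71 and 2.38 in NrasG12D/+, 0.671, 1.5 and 1.05 in Tet2+/-, and 1.23, 1.12 and 1.6 in the compound mutant. For Irf7, all 6 libraries with the Tet2 allele were below all wild-type libraries, an order that was not counted over all genes. They overlapped NrasG12D/+ for this gene. Its log2 difference for the Tet2 allele was -0.57 ± 0.33 (limma adjusted p = 0.963) and for the Nras allele 0.08 ± 0.33 (limma adjusted p = 0.971), the latter -0.07 without NrasG12D/+ 3 or without Tet2+/- 1. Irf9 had the smallest spread within genotypes of all members, a log2 SD of 0.10, tied with Trim30a, and its compound libraries were above all Tet2+/- libraries.

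In the ISG15 system, which attaches and removes a ubiquitin-like tag, Usp18 gave the smallest p of any member in NrasG12D/+ and in Tet2+/- against wild type. Usp18 (chr6:121245906-121270917, plus strand, GRCm38) removes ISG15 from proteins and blocks signaling at Ifnar2. Its RPKM was 4.75, 5.26 and 4.65 in wild type, 9.78, 11.5 and 11.9 in NrasG12D/+, 12.9, 6.07 and 11.4 in Tet2+/-, and 5.48, 9.31 and 12.6 in the compound mutant. All 9 mutant libraries were above the 3 wild-type libraries, by little in Tet2+/- 2 and compound 1. The share of all genes with this order was not counted. NrasG12D/+ differed from wild type by 1.18 ± 0.33 on the log2 scale (95% interval 0.44 to 1.91, limma adjusted p = 0.831). The difference was 0.98 ± 0.33 in Tet2+/- (limma adjusted p = 1) and 0.82 ± 0.33 in the compound mutant (limma adjusted p = 0.759). These differences rest on the same 3 wild-type libraries. The interaction was -1.34 ± 0.47 (limma adjusted p = 0.996), meaning that the compound level was below the sum of the 2 single log2 differences. The Nras allele difference in Usp18 was 0.51 ± 0.23 (limma adjusted p = 0.706). Pooled within a sex, without balancing Tet2 genotype, it was -0.28 in male and 1.09 in female libraries. The male libraries without the Nras allele were wild type 1 and Tet2+/- 1 and 3. NrasG12D/+ against wild type gave 1.04 in male (1 library each) and 1.24 in female libraries (2 each). Groups did not overlap in the higher direction for 9.09% of members and 5.27% of all genes in NrasG12D/+ against wild type (Dhx58, Ifit3, Mx1 and Usp18). The shares were 2.27% and 5.24% in Tet2+/- (Usp18), and 9.09% and 6.09% in the compound mutant (Ifih1, Mx2, Oasl2 and Usp18). In the lower direction they were 2.27% and 4.48% (Rsad2), 6.82% and 4.01% (Adar, Irf7 and Trim30a), and 2.27% and 5.16% (Irf7). Between 6 carriers and 6 other libraries no member was without overlap for either allele, beside 0.459% of all genes higher and 0.388% lower for Nras and 0.0646% in each direction for Tet2.

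Herc6, the ligase for ISG15 in mice, had 16.1, 16.1 and 20.1 RPKM in wild type, 17.6, 21.1 and 13.8 in NrasG12D/+, 17.2, 12.3 and 12.9 in Tet2+/-, and 18.3, 22.3 and 17.9 in the compound mutant. The compound libraries were above all Tet2+/- libraries and overlapped the rest. Isg15 itself had 0 reads in 4 libraries, which are wild type 1, NrasG12D/+ 1, compound 1 and compound 3. The other 8 libraries had 9 to 156 reads, or 0.471 to 6.10 RPKM, while 0 reads allow up to 0.133 to 0.198 RPKM (3 reads, counting error only). RPKM was 2.82 and 4.84 in wild type 2 and 3, 3.58 and 3.17 in NrasG12D/+ 2 and 3, 2.62, 0.471 and 1.36 in Tet2+/-, and 6.10 in compound 2. Values at and near 0 occurred in wild-type and mutant libraries, and no fold change is given.

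**Figure D3:**
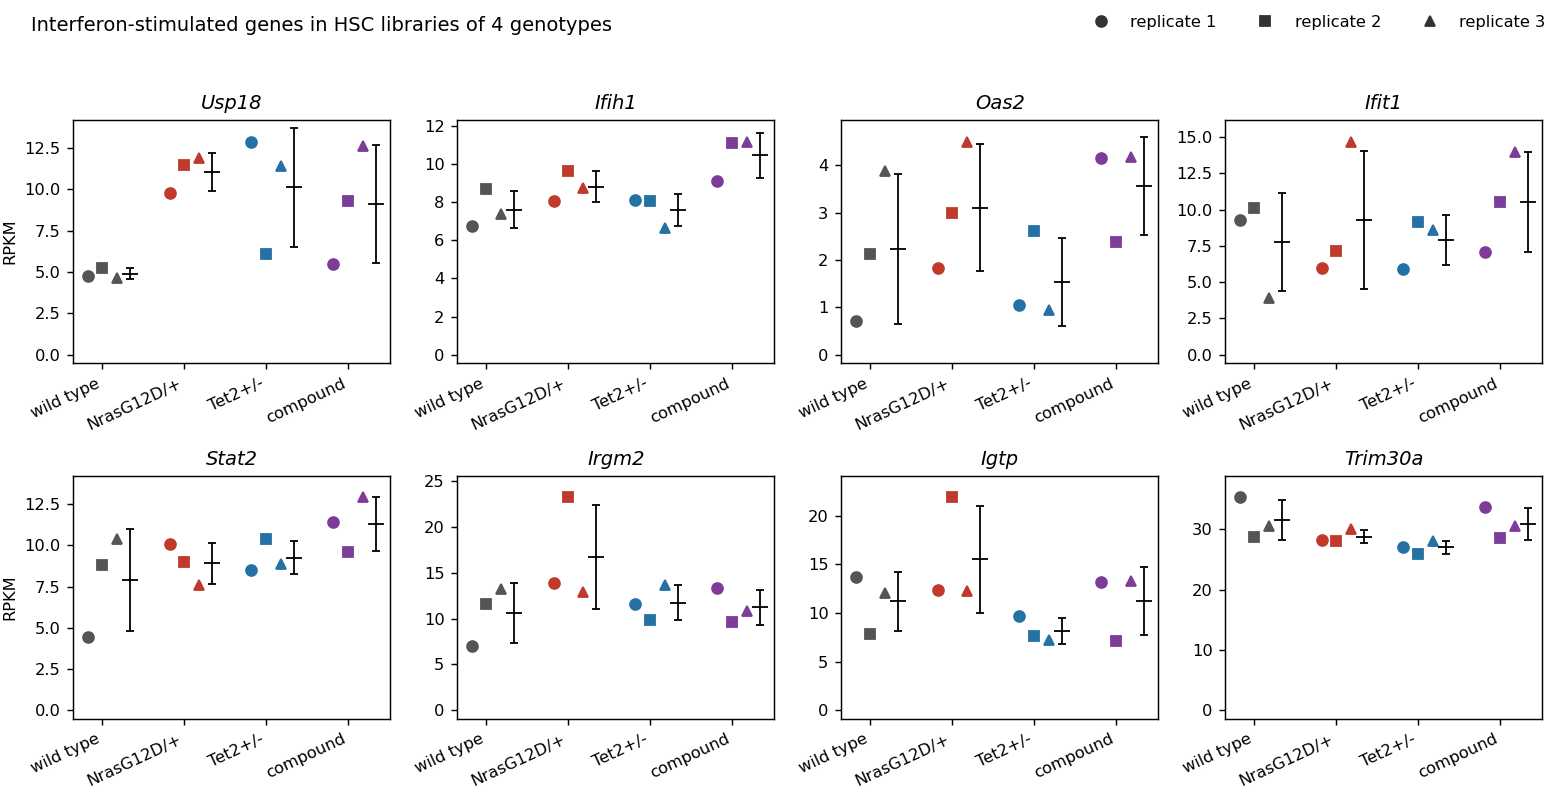
RPKM (y axes, linear from 0) of 8 members in 12 libraries by genotype (x axes), with a symbol for each replicate number and a bar for the mean ± SD of 3 libraries. Usp18 lies at 4.65 to 5.26 in wild type and above that in all mutant libraries, while the other 7 genes overlap between wild type and at least 1 mutant genotype.

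Among the antiviral effectors, some genes had 0 or few reads in single libraries. The Ifit proteins bind viral RNA that lacks a host cap. Ifit1 had 9.31, 10.1 and 3.87 RPKM in wild type, 5.94, 7.17 and 14.7 in NrasG12D/+, 5.91, 9.17 and 8.63 in Tet2+/-, and 7.11, 10.5 and 14.0 in the compound mutant. The genotypes overlapped, and the log2 difference was 0.32 ± 0.32 for the Nras allele and 0.18 ± 0.32 for the Tet2 allele (limma adjusted p = 0.859 and 0.964). Without wild type 3 these were 0.10 and -0.04. Ifit3 had 0 reads in wild type 1 and 0.579 and 0.950 RPKM in wild type 2 and 3, against 1.87, 2.92 and 2.08 RPKM in NrasG12D/+. It had 2.20, 1.47 and 0.200 RPKM in Tet2+/- and 2.31, 2.07 and 0.241 in the compound mutant. NrasG12D/+ was above wild type without overlap (limma adjusted p = 0.870), and Tet2+/- 3 and compound 3 were low. Reads of Ifit3 may be shared with its near-identical neighbour Ifit3b. Ifit3b lay at 0.713 to 1.26 RPKM in the libraries with the Nras allele and at most 0.646 RPKM in the others. Among tested genes, 0.459% were higher without overlap in that way. Ifit3b had at most 70 reads in a library, fell below the minimum for testing, and was named after its values were seen.

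Other effectors were named after their values were seen, because single libraries stood apart. Cmpk2, a nucleotide kinase, had 0 reads in wild type 1 and 438 to 1118 reads in the other 11 libraries. Its neighbour Rsad2 (viperin, which makes a chain-terminating nucleotide) had 0.0327 RPKM in compound 2 and 1.63 to 4.21 RPKM elsewhere. The tethering factor Bst2 had 24.4 RPKM in wild type 1, and 3.37 to 14.0 RPKM in the other libraries. The log2 SD within genotypes was 4.32 for Isg15, 3.28 for Cmpk2, 2.47 for Ifit3 and 1.92 for Rsad2, and at most 0.84 for the other 40 members.

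**Figure D4:**
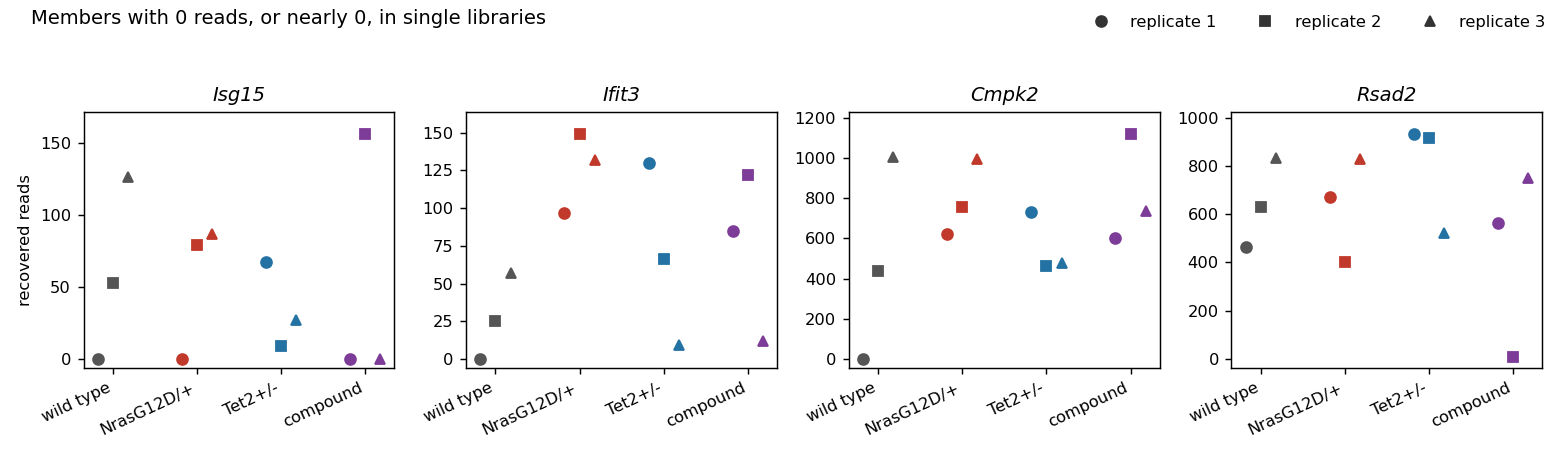
Recovered reads (y axes, linear) of Isg15, Ifit3, Cmpk2 and Rsad2 in 12 libraries by genotype (x axes), with a symbol for each replicate number. Isg15 has 0 reads in 4 libraries, Ifit3 and Cmpk2 in wild type 1, and Rsad2 is nearly absent in compound 2.

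The oligoadenylate synthetase Oas2, which activates RNase L, had 0.712, 2.12 and 3.88 RPKM in wild type, 1.83, 2.99 and 4.50 in NrasG12D/+, 1.05, 2.61 and 0.935 in Tet2+/-, and 4.15, 2.37 and 4.17 in the compound mutant. The genotypes overlapped. The Nras allele difference was 1.01 ± 0.47 on the log2 scale (95% interval -0.03 to 2.05, limma adjusted p = 0.708). Unbalanced for Tet2 genotype, this difference was 1.63 within male and 0.29 within female libraries. Without wild type 1 and NrasG12D/+ 2 the balanced difference was 0.67. Samd9l had 26.2, 28.5 and 35.3 RPKM in wild type, 25.5, 30.7 and 32.7 in NrasG12D/+, 33.7, 36.3 and 30.7 in Tet2+/-, and 33.2, 33.5 and 48.5 in the compound mutant. The Tet2 allele difference of Samd9l was 0.26 ± 0.12 (limma adjusted p = 0.963), and 0.17 without compound 3; carriers and non-carriers overlapped. Trim30a had 35.3, 28.8 and 30.6 RPKM in wild type, 28.2, 28.1 and 30.1 in NrasG12D/+, 27.0, 25.9 and 28.1 in Tet2+/-, and 33.7, 28.5 and 30.5 in the compound mutant. Tet2+/- was below wild type without overlap, at -0.22 ± 0.10 on the log2 scale (limma adjusted p = 1), or -0.14 without wild type 1. The RNA-editing enzyme Adar had 8.01, 9.68 and 9.84 RPKM in wild type, 8.02, 9.74 and 8.37 in NrasG12D/+, 7.54, 7.93 and 7.24 in Tet2+/-, and 9.99, 8.72 and 8.73 in the compound mutant. Its Tet2+/- libraries were below those of the other 3 genotypes, an order that was not counted over all genes. The log2 difference of Tet2+/- from wild type was -0.27 ± 0.14 (limma adjusted p = 1).

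The interferon gamma-inducible GTPases, which attack vacuoles that hold pathogens, all had a positive estimate for the Nras allele and a negative one for the Tet2 allele. The median log2 difference of the 5 genes was 0.28 for Nras and -0.25 for Tet2, and none passed. Against wild type, 4 of 5 were above 0 in NrasG12D/+, 1 in Tet2+/- and 2 in the compound mutant. The medians there were 0.10, -0.28 and -0.02. Irgm2 had 6.99, 11.6 and 13.2 RPKM in wild type, 13.9, 23.2 and 12.9 in NrasG12D/+, 11.6, 9.88 and 13.7 in Tet2+/-, and 13.3, 9.58 and 10.8 in the compound mutant. Its log2 difference of NrasG12D/+ from wild type was 0.65 ± 0.29 (limma adjusted p = 0.870), with 1 high library, NrasG12D/+ 2, and overlapping groups. Without wild type 1 and NrasG12D/+ 2 it was 0.12. Igtp, which lies next to Irgm2 and overlaps its annotated span, had 13.7, 7.81 and 12.1 RPKM in wild type, 12.4, 21.9 and 12.3 in NrasG12D/+, 9.72, 7.60 and 7.24 in Tet2+/-, and 13.2, 7.16 and 13.3 in the compound mutant. The same library was highest for Igtp, whose Tet2 allele difference was -0.45 ± 0.23 (limma adjusted p = 0.963), or -0.23 without those 2 libraries. Irgm1, which restrains the other GTPases and is needed for HSC maintenance in mice, had 11.2, 14.6 and 18.8 RPKM in wild type, 10.5, 16.5 and 13.6 in NrasG12D/+, 11, 12.5 and 8.40 in Tet2+/-, and 14.7, 10.3 and 14.4 in the compound mutant. Its difference was 0.09 ± 0.18 for the Nras allele and -0.25 ± 0.18 for the Tet2 allele (limma adjusted p = 0.929 and 0.963), and the Nras value became -0.08 without those 2 libraries. Ifi47 had 14.7, 17.7 and 10.8 RPKM in wild type, 11.1, 18 and 17.4 in NrasG12D/+, 12.6, 13.8 and 9.22 in Tet2+/-, and 10.7, 10.7 and 16.3 in the compound mutant. Iigp1 had 16.1, 12.4 and 12.0 RPKM in wild type, 12.4, 13.5 and 16.3 in NrasG12D/+, 9.67, 13.9 and 9.90 in Tet2+/-, and 13.0, 17.3 and 16.6 in the compound mutant. Both overlapped across the genotypes.

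The Parp9, Dtx3l and Parp14 genes, whose products modify proteins at sites of damage and in STAT signaling, had the narrowest range of allele differences among the 7 roles. For the Nras allele their log2 differences lay between -0.03 and 0.10, and for the Tet2 allele between -0.02 and 0.10. Dtx3l had 35.2, 35.1 and 27.6 RPKM in wild type, 37.7, 29.9 and 34.1 in NrasG12D/+, 40.7, 29.3 and 32.8 in Tet2+/-, and 38.2, 34.3 and 39.5 in the compound mutant. Parp14 had 26.1, 22.6 and 23.5 RPKM in wild type, 20.6, 24.6 and 22.7 in NrasG12D/+, 25.8, 19.4 and 23.6 in Tet2+/-, and 22.7, 23.0 and 24.4 in the compound mutant. The genotypes overlapped for both. Of the remaining members, Lgals3bp had 40.4, 34 and 42.0 RPKM in wild type, 41.5, 25.5 and 34.8 in NrasG12D/+, 38.8, 29.5 and 30.3 in Tet2+/-, and 35.7, 32.7 and 32 in the compound mutant. Sp100, a nuclear body protein, had 10.4, 9.52 and 10.1 RPKM in wild type, 10.1, 9.66 and 9.78 in NrasG12D/+, 9.37, 8.98 and 11.8 in Tet2+/-, and 8.49, 9.94 and 10.8 in the compound mutant. Both overlapped across the genotypes as well.

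The compound mutant against Tet2+/- held the most members at an unadjusted p under 0.05, all 6 of them higher (Ifih1, Oasl2, Xaf1, Iigp1, Herc6 and Zbp1). That is 13.6% of members, against 2.58% of all genes in that direction, and the smallest adjusted p was 0.819. In this comparison 31 of 44 members were above 0 (70.5%, against 47.1% of all genes), with a median of 0.15, or 0.04 without compound 3. Groups did not overlap in the higher direction for 9 of 44 members and 6.22% of all genes, and in the lower direction for 2.27% (Bst2) and 6.53%. Oasl2, Xaf1 and Zbp1 are named here because they are in that count. In the compound mutant against NrasG12D/+, 21 members were above 0 (against 49.1%) with a median of -0.03. Groups did not overlap in the higher direction for 6.82% of members (Oasl2, Samd9l and Xaf1) and 4.15% of all genes, and in the lower direction for 2.27% (Trim25) and 4.33%. Trim25 was the 1 member at an unadjusted p under 0.05 (-0.38 ± 0.14, limma adjusted p = 1).

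The rest of the pathway did not pass either. Of 92 further genes listed, 71 were tested, and none passed in any of the 8 comparisons. At an unadjusted limma p under 0.05, 9 of the 71 were higher and 3 lower with the Nras allele, beside 7.24% of all genes. In the compound mutant against Tet2+/- 5 were higher and 2 lower, beside 5.45%. With the Tet2 allele 0 were higher and 1 lower, beside 3.81%. The other comparisons had at most 3 higher and 2 lower. With the Nras allele 41 of 71 were above 0, against 48.9% of all genes. None of the 10 listed interferon ligands was found in the table under its listed symbol, so none was tested. All 5 receptor chains in the table were tested. Ifnar1 lay at 6.48 to 12.4 RPKM and Ifngr1 at 14.7 to 21.0 RPKM over the 12 libraries. For Ifngr1, NrasG12D/+ (16.9 to 18.1 RPKM) and Tet2+/- (14.7 to 17.9 RPKM) lay just below wild type (18.3 to 19.2 RPKM), and the compound mutant (14.7 to 21.0 RPKM) overlapped it. The Ifngr1 difference had a 95% interval from -0.21 to 0.23 (log2) with the Nras allele and from -0.28 to 0.16 with the Tet2 allele. Jak1 lay at 42.7 to 57.2 RPKM and Tyk2 at 9.95 to 23.4 RPKM.

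Of these further genes, the smallest p values for the Nras allele were those of Mndal, a nuclear DNA-binding protein of the Ifi200 family, Shisa5 and the antibody receptor Trim21. Mndal had 18.1, 18.7 and 17.2 RPKM in wild type, 17.7, 25.3 and 19.8 in NrasG12D/+, 17.1, 18.7 and 17.8 in Tet2+/-, and 24.0, 25.2 and 25.6 in the compound mutant. The compound libraries were above all wild-type and Tet2+/- libraries, and the Nras allele difference was 0.34 ± 0.09 (limma adjusted p = 0.381). Mndal shares sequence with other Ifi200 genes, so its reads are uncertain. The Nras allele difference was -0.43 ± 0.13 for Shisa5 and 0.57 ± 0.18 for Trim21 (limma adjusted p = 0.445 and 0.488). Shisa5 lay at 4.44 to 8.17 RPKM and Trim21 at 7.40 to 17.3 RPKM over the 12 libraries. For the Tet2 allele the smallest p values were those of the phosphatase Ptpn2, which dampens JAK and STAT signaling, the immunoproteasome subunit Psmb9 and Jak2. Ptpn2 had 7.71, 4.93 and 8.66 RPKM in wild type, 9.20, 6.34 and 8.13 in NrasG12D/+, 3.92, 3.77 and 4.80 in Tet2+/-, and 6.47, 4.22 and 5.80 in the compound mutant. Tet2+/- was below wild type and NrasG12D/+ without overlap, and the Tet2 allele difference was -0.63 ± 0.19 (limma adjusted p = 0.963). The differences of Psmb9 and Jak2 were -0.27 ± 0.13 and -0.20 ± 0.09 (limma adjusted p = 0.963 for both), and that of Psmb9 was -0.17 without wild type 1 and NrasG12D/+ 2. Psmb9 lay at 6.30 to 11.6 RPKM and Jak2 at 15.7 to 24.2 RPKM over the 12 libraries.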

How the data were processed

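Total RNA of SLAM HSCs was depleted of ribosomal and mitochondrial RNA and made into stranded libraries, per the labels' protocols. CASAVA 1.8.2, TopHat2, edgeR and the mm10 build are named in the submitters' processing notes, with no role given. Whether counting used strand is not given in the sources used here, and 19 of 44 members overlap another annotated gene, so their reads are uncertain. The authors deposited 1 table of log2 RPKM, a log2 unit entered here as an other unit. Whole reads (mean prior 0.25 reads, tolerance 0.001) were recovered with a single gene length for 18544 of 18546 genes; for the other 2 the best of several lengths was used. The length behind a value equalled the summed exon lengths of all annotated transcripts for 27 of 44 members. A count of 0 was taken to allow 3 reads in a library, a limit for counting error alone, since these reads carry no molecular identifiers.

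Tests used limma 3.58.1 (R 4.3.3) on the deposited log2 scale, with a mean for each genotype across 12 libraries (8 residual degrees of freedom, variance trend), for 15478 genes; 3068 genes below the minimum were left out. Tests were two-sided, adjusted within each of 8 comparisons at 0.05, and the fit was tested on simulated data. Same-genotype libraries differed well beyond sampling noise (mean chi-square per gene of 46.1 to 120), so none was counted as a duplicate. The members and the pathway list were chosen with earlier results of these data known. Named members are the 2 highest per role, the 3 with the smallest p in each comparison with wild type and each allele average, and Isg15, Ifit1, Irf7, Usp18 and Irgm1 (1 further gene of that rule is not reported here); of the pathway genes, the 3 with the smallest p per allele average. Alternatives changed the minimum, pseudocount, scaling, samples fitted, replicate block, sex, weights, trend, libraries kept and model (voom on recovered reads).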

Additional observations from a re-analysis of the deposited data

Results flagged for a closer look

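Among 176 groups of 6 libraries (carriers and non-carriers of each allele, for 44 members), 15 held a value far from the other 5 by Dixon's test, or 8.52%. Chance gives about 1 in 20 for independent, normally distributed values. These groups mix genotypes on the RPKM scale and share libraries, so the share is a description only. Of these, 6 came from NrasG12D/+ 2. Among Nras carriers and among libraries without the Tet2 allele, its Rtp4 value of 38.5 RPKM was far above the next, 16.7 and 17.6 RPKM. Irgm2 at 23.2 RPKM was above the next Nras carrier at 13.9, and Irf1 at 13.5 and Mx2 at 4.08 RPKM were above the next libraries without the Tet2 allele at 9.94 and 1.59. Rsad2 at 1.63 RPKM was below the next of those libraries at 2.68.

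Wild type 1 gave 4 of the values. Zbp1 at 6.13, Ifi27 at 8.96 and Stat2 at 4.43 RPKM stood apart from the next libraries without the Nras allele, at 3.78, 4.92 and 8.50 RPKM. Trim30a at 35.3 RPKM stood above the next library without the Tet2 allele, at 30.6. Samd9l in compound 3, at 48.5 RPKM, was far above the other Nras carriers and the other Tet2 carriers, whose next values were 33.5 and 36.3. Zbp1 in NrasG12D/+ 1 was low at 2.99 RPKM, with the next Nras carrier at 5.35. Oas1a in Tet2+/- 1 was high at 15.9 RPKM and Ifi44 in compound 1 low at 6.74 RPKM, with the next Tet2 carriers at 9.51 and 9.63.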

How the results depend on the processing

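No interferon-stimulated gene and no further pathway gene passed in any of the 181 fits counted, and the smallest adjusted p of a member in any of them was 0.301 (voom on recovered reads, Ifih1, Nras allele). Of 29 named log2 differences, none passed under any alternative, and 5 of 647 recomputed values changed sign. Irf7 for the Nras allele was -0.07 without Tet2+/- 1 and -0.07 without NrasG12D/+ 3. Irgm1 for the Nras allele was -0.08 without wild type 1 and NrasG12D/+ 2, the pair with most genes lacking reads, and -0.004 without wild type 1. Ifit1 for the Tet2 allele was -0.04 without wild type 3. With 1 library left out in turn, these 3 differences reached 0.25, 0.18 and 0.38 at the other end. The cause was not tested.

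The counts over all genes were small and moved. NrasG12D/+ against wild type gave 3 genes with log2(RPKM + 0.5), 3 with no variance trend and 3 without the 2 libraries, and 0 with quantile normalization, with only the groups compared or with voom. Tet2+/- against wild type gave 0 with only the groups compared, voom, log2(RPKM + 0.5) or quantile normalization, and 2 with no variance trend or without the 2 libraries. The compound mutant against wild type gave 0 under the same 4 settings, 3 with no variance trend and 2 without the 2 libraries. Against NrasG12D/+ it gave 2 with only the groups compared, 3 with no variance trend and 1 without the 2 libraries. Against Tet2+/- it gave 4 with only the groups compared, 3 with no variance trend, 8 without the 2 libraries, and 0 with sex as covariate or voom. The interaction gave 0 with log2(RPKM + 0.5), quantile normalization or voom. The Nras allele gave 8 with median-centred libraries, 1 with quantile normalization, 11 with library weights and 20 with voom, and the Tet2 allele 1 with no variance trend.

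With 1 library left out in turn, the counts over all genes ranged from 1 to 18 for NrasG12D/+ against wild type, 1 to 20 for Tet2+/-, and 1 to 17 for the compound mutant. They ranged from 0 to 12 for the compound mutant against NrasG12D/+, 0 to 6 against Tet2+/-, 0 to 6 for the interaction, 2 to 17 for the Nras allele and 0 to 7 for the Tet2 allele. The highest counts came without wild type 2 in the 3 comparisons with wild type and for the Tet2 allele, and without NrasG12D/+ 3 for the Nras allele. The member median ranged from 0.04 to 0.20 for compound against Tet2+/- and from -0.08 to 0.14 for the interaction, and the latter was 0.12 without the 2 libraries. It ranged from 0.03 to 0.15 for NrasG12D/+ against wild type, 0.10 to 0.20 for the Nras allele and -0.06 to 0.01 for the Tet2 allele. Without the 2 libraries the first was 0.00 and the Nras allele 0.08.

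After the genotype mean of each gene was subtracted, same-numbered libraries of different genotypes correlated between -0.125 and 0.136 (18 pairs, median 0.0315). Different-numbered libraries correlated between -0.143 and 0.162 (36 pairs, median -0.0165). Of 12 libraries, 8 correlated best with a library of their own number, which is a hint from the data and not part of the design. The male libraries were replicate 1 of each genotype and Tet2+/- 3, so likeness by number cannot be fully told apart from likeness by sex. With the replicate number as a block, 0 members passed, and the counts over all genes were 0 for compound against Tet2+/-, 0 for the interaction and 7 for the Nras allele. The number of libraries and the reads behind low genes such as Isg15 limit what can be seen.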
